A study of Homo sapiens with 4 samples.

Results

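The genes described here are 49 genes of the G2 phase and of mitosis, out of 60048 human genes in the deposited table. They were chosen by name, with earlier results of these data known. Each row whose gene symbol stood on a list of mitotic kinases and of checkpoint, kinetochore, spindle and cytokinesis genes was taken. All 49 symbols were found. The assay was EU-seq, run on HCT116 cells, an established human colorectal carcinoma line. It feeds the cells 5-ethynyl uridine (EU), so that RNA made during a short pulse can be pulled out and sequenced. All 4 libraries came from cells of genotype RAD21-mAC, in which RAD21, a subunit of the cohesin ring, carries a degron tag. The control group (2 libraries) received DMSO, and the auxin group (2 libraries) was kept for 3 h in 0.5 mM of the auxin indole-3-acetic acid, which triggers loss of the tagged protein. The EU pulse was 0.5 mM over 20 min in both groups, and RNA of EU-fed fly S2 cells was mixed in as a spike. The labels give no cells without the tag, so auxin as a compound and loss of RAD21 cannot be told apart, and they do not say whether replicates came from separate cultures, so p-values measure the spread between these libraries.

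Genes of this kind are transcribed late in the cell cycle. In G1 their promoters are held down by the DREAM complex, and from late S phase they are switched on by B-MYB with the MuvB core and then by FOXM1. Many of their promoters carry a short element called the CHR, near which the factor NF-Y binds a CCAAT box. Genes of the G1/S transition are driven instead by E2F factors, at sites of the type TTTGGCGC or TTTCGCGC. Cohesin holds sister chromatids together until separase cuts RAD21 at anaphase. The comparison is of the nascent signal of these genes with and without auxin.

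Promoters of mitotic genes and of G1/S genes differ in how often they hold certain short words, and 6 promoters are shown for that reason. Each run is the 120 bases just before the RefSeq start of the gene (build GRCh38.p14), 5′ to 3′ on the gene's strand. Capitals mark the words searched, on either strand, and neighbouring words can run together. The words are TTTGAA or TTCGAA for the CHR, CCAAT for the NF-Y box, and TTTGGCGC or TTTCGCGC for E2F. CCNB2, PLK1, KIF11 and MKI67 were picked because they show a CHR next to a CCAAT box. MAD2L1 is the member with the lowest fold change. E2F1 was picked as a G1/S gene with an E2F word, which 14 of 47 G1/S promoters held. The 6 runs lie at chr15:59105026-59105145 (plus strand), chr16:23678769-23678888 (plus), chr10:92593010-92593129 (plus), chr10:128126424-128126543 (minus), chr4:120066849-120066968 (minus) and chr20:33686386-33686505 (minus), in the order named.
CCNB2: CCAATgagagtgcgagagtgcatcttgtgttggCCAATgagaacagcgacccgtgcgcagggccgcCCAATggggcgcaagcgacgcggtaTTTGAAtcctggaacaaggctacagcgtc
PLK1: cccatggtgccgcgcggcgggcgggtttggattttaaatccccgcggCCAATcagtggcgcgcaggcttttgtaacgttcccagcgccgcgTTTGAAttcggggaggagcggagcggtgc
KIF11: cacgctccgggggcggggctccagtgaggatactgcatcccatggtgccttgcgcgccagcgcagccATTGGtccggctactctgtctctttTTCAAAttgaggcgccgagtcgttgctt
MKI67: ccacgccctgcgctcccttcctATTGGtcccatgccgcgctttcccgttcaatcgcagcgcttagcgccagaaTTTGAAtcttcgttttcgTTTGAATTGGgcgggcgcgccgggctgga
MAD2L1: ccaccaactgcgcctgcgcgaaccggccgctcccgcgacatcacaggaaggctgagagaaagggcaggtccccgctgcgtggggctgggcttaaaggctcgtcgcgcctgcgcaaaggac
E2F1: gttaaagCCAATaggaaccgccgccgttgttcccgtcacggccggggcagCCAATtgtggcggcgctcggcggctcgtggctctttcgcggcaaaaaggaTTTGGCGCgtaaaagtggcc

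In the RefSeq promoter table, whose window runs from 250 bases before to 50 bases after the start, 42 of the 49 genes had an entry. FOXM1, AURKA, BIRC5, BUB3, TTK, UBE2C and TPX2 had none. A CHR word was found in 31 of the 42 windows (73.8%), against 16.6% of all 27305 promoters and 6.38% of the promoters of G1/S genes. Among promoters of other G2/M genes, 29 of 67 held one (43.3%). A CCAAT word was found in 34 (81.0%), against 35.7% of all promoters, 55.3% of G1/S promoters and 55.2% of promoters of other G2/M genes. A CHR word starting up to 60 bases downstream of a CCAAT word was found in 22 (52.4%), against 1.76% of all promoters and 1 of 47 G1/S promoters (2.13%). Promoters of other G2/M genes had this arrangement in 14 of 67 (20.9%). In CCNB2 and in PLK1, which encodes Polo-like kinase 1, the CHR began 29 bases before the start. The E2F words were found in 2 of the 42 (4.76%, CDK1 and NUSAP1) and in 14 of 47 G1/S promoters (29.8%). They were found in 2.99% of promoters of other G2/M genes and in 1.18% of all promoters. In MAD2L1 a CHR word began 24 bases after the start and the nearest CCAAT 229 bases before it, both outside the run shown. These matches describe the letters of the windows, and binding was not measured.

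The table gave 1 value per gene and library, a scaled signal over the whole gene span rather than a count of reads, so the depth in reads is unknown and counting intervals are left out. Trimmed means of M-values over the human genes set the 4 libraries to the same scale, without use of the fly spike. A change shared by all genes would therefore not show. The divisors were 0.999, 1.01, 0.816 and 1.21 (control replicates 1 and 2, auxin replicates 1 and 2). RAD21, whose tag acts on the protein, had scaled signals of 5154, 7190.2, 5893 and 6264 in that order (log2 fold change -0.0029, limma adjusted p = 0.998), which does not check the labels. Of 8 markers of colon epithelium, 7 were at 22.4 to 2063 units per kb of span, and KRT20, a marker of differentiated colon, was at 3.38. Of markers of other cell types, PTPRC, CD3E and COL1A2 were at or below 0.391 per kb, PECAM1, DES and COL1A1 were at 3.02, 7.94 and 45.6, and CD68 was at 388. All 8 epithelial and 5 of the 7 other markers passed the filter on low values. None was called, where 0.732% of all tested genes were. Of the 8 epithelial markers, 6 had log2 fold changes below 0, where 51.3% of all tested genes were above 0. The other 2, CDH1 and CDX2, were at 0.55 (limma adjusted p = 0.0578) and 0.42. All 49 mitotic genes were above 0 in every library and all passed the filter on low values. Their mean scaled signals ran from 619 to 14555, the median being 3189 against 237 over all 39464 genes tested. For each member the mean over libraries was also divided by its span, from 4223 to 130783 bases. On this per-kb scale CDC20 (633), UBE2C (579), AURKB (545), MKI67 (489) and BIRC5 (430.3) were highest, and CDC25C (15.6), NUF2 (18.9) and KIF18A (19.9) were lowest.

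No mitotic gene passed the test after 3 h of auxin, in a fit that did not pair the replicates. With limma and an adjusted p under 0.05, 0 of 49 were called, where 0.732% of all tested genes and 1.31% of 11143 protein-coding genes with means in the same range were called. The smallest adjusted p was 0.445. At an unadjusted p under 0.05 there was 1 gene, MAD2L1, which was lower with auxin. Of all tested genes 10.2% were under it (4.75% higher, 5.47% lower), and of the protein-coding genes in that range 17.4% (10.6% lower). The median log2 fold change of the 49 was 0.094 (1.07-fold), against 0.0089 over all tested genes and -0.023 over the protein-coding genes in the same range, and the single genes ran from -0.48 to 0.37. The sign of the median changed with the libraries used. In such fits the group with 1 library left is assumed to vary like the other. Leaving out control replicate 1 gave -0.088 and leaving out auxin replicate 2 gave -0.069, whereas 0.26 and 0.20 came from leaving out control replicate 2 and auxin replicate 1. Signal from fewer or more cells in G2 and mitosis cannot be told apart from signal per cell in such a bulk measurement.

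The intervals show what size of change, relative to the other genes, the libraries leave possible for each gene. The 95% interval of the fold change lay within 2-fold in either direction for all 49 genes, and within 1.5-fold for 31 of them. These intervals are per gene and are not adjusted for the number of genes. Across the 49 genes the lowest limit was 0.523-fold (MAD2L1) and the highest was 1.71-fold (HMMR). The median distance from the estimate to either limit was 0.41 on the log2 scale. In 38 of 49 genes the log2 fold change was above 0, where 51.3% of all tested genes and 45.9% of the protein-coding genes in the same range were. Dropping control replicate 1 made this count 15, and dropping auxin replicate 2 made it 22. It was 42 when auxin replicate 1 was dropped and 44 when control replicate 2 was.

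**Figure D1:**
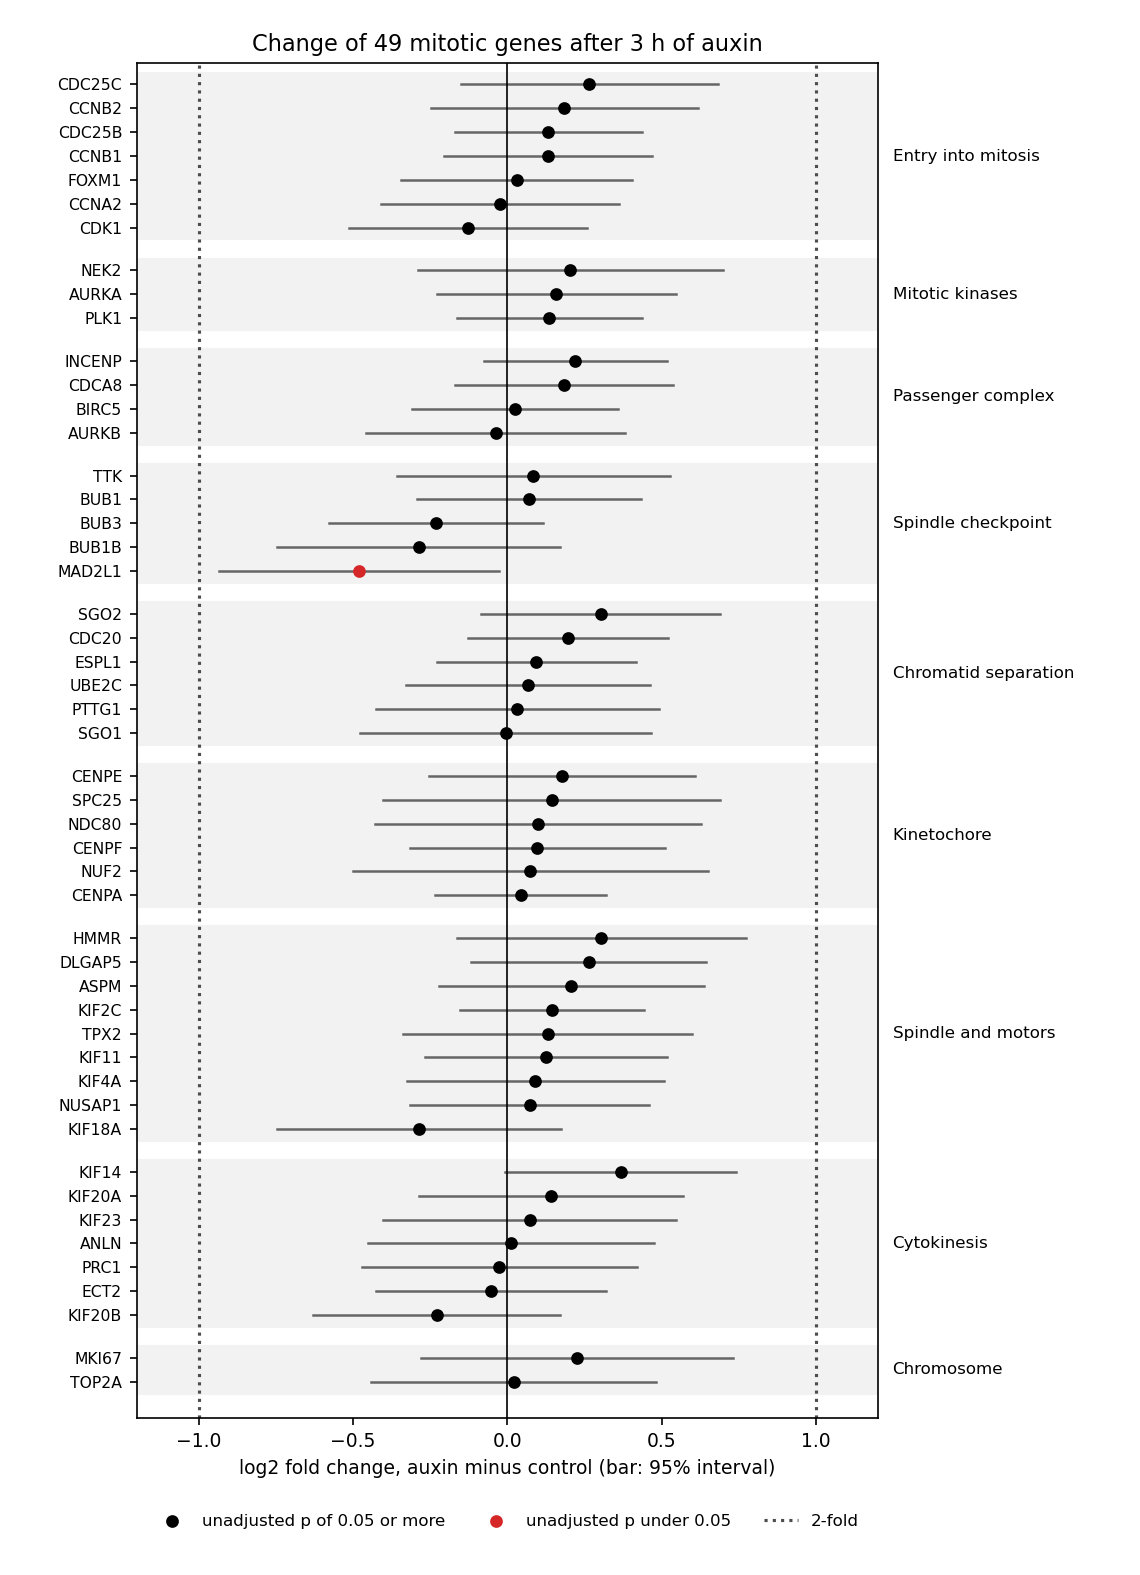
Log2 fold change of each of the 49 mitotic genes, auxin minus control, with its 95% interval (limma, 2 libraries in each group), grouped by role. All intervals lie inside the dotted 2-fold lines, and only the interval of MAD2L1 (red) does not hold 0.

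The genes that bring cells into mitosis lay close to 1-fold. CCNB1, which encodes cyclin B1, the partner of CDK1, had scaled signals of 3245 and 3916 in control and 3740.04 and 4076 in auxin. Auxin replicate 1 lay between the control libraries, and the log2 fold change was 0.13 (95% interval -0.20 to 0.47, adjusted p = 0.894). CDK1, the kinase itself, stood at 3060.5 and 4233 in control and 3184 and 3405 in auxin. Both auxin values lay between those of control (log2 fold change -0.13, interval -0.51 to 0.26). FOXM1, the transcription factor of late G2 genes, had 2919.7 and 3428 in control and 2852 and 3658 in auxin, a log2 fold change of 0.030. CDC25C, a phosphatase that activates CDK1, had the smallest unadjusted p of this group. Its values were 829 and 675 in control and 892 and 907 in auxin, with both auxin libraries above both control libraries (log2 fold change 0.27, SE 0.19, adjusted p = 0.748). Its span, which overlaps FAM53C, held the lowest signal per kb of the 49. CCNA2, CCNB2 and CDC25B had log2 fold changes of -0.023, 0.18 and 0.13, and CDC25B was the other gene of the 7 whose groups did not overlap. Over all tested genes, both auxin libraries lay above both control libraries in 18.6% and below both in 19.6%, and over the protein-coding genes at these levels in 21.2% and 27.6%. Among the 49, they lay above in 10 and below in 2.

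Among the mitotic kinases, PLK1, which acts in centrosome maturation and spindle assembly, had replicates close together. It stood at 4018 and 3971 in control and 4283 and 4501 in auxin, without overlap, and the log2 fold change was 0.14 (interval -0.16 to 0.43, adjusted p = 0.862). AURKA, the kinase of centrosomes and spindle poles, had 2077 and 2392 in control and 2187 and 2827.5 in auxin, with auxin replicate 1 between the control libraries (0.16, interval -0.23 to 0.55). NEK2, a centrosome kinase, was at 0.20 on the same scale, and its auxin values both lay between the control values. The chromosomal passenger complex consists of AURKB, its scaffold INCENP, survivin (BIRC5) and borealin (CDCA8). INCENP had 6232 and 5554 in control and 6537 and 7188 in auxin, again without overlap (log2 fold change 0.22, SE 0.13, adjusted p = 0.674). AURKB had 2715 and 3769 in control and 2785 and 3486 in auxin, both auxin values lying inside the control range (-0.038, interval -0.46 to 0.38). BIRC5 and CDCA8 were at 0.025 and 0.18. The 4 genes of 1 complex thus had estimates of either sign. None of them passed the test, where 0.732% of all tested genes did.

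The spindle checkpoint genes had the lowest median of the 9 groups, and MAD2L1 in it the lowest estimate of the 49. MAD2L1 encodes MAD2, which with BUBR1 and BUB3 inhibits CDC20 until all kinetochores are attached. Its scaled signals were 1665 and 2521 in control and 1510 and 1427 in auxin, so both auxin libraries lay below both control libraries. The log2 fold change was -0.48 (SE 0.20, 95% interval -0.93 to -0.027, unadjusted p = 0.040, adjusted p = 0.445), 0.717-fold. It was -0.18 without control replicate 2, the library with the highest value, and -0.77 without control replicate 1. BUB1B, which encodes BUBR1, had 4113 and 5968 in control and 3443 and 4786 in auxin, with overlap (-0.29, interval -0.75 to 0.17, adjusted p = 0.756). BUB1B overlaps PAK6 and the readthrough gene BUB1B-PAK6, and the values do not separate them. BUB3 was the other gene of the 49 with both auxin libraries below both control libraries, at a log2 fold change of -0.23. The kinases BUB1 and TTK were at 0.069 and 0.084. The median of the 5 genes was -0.23, and no other group of the 9 had a median below 0. It rested on control replicate 2: against that library the group's medians were -0.43 (auxin replicate 1) and -0.32 (auxin replicate 2), and against control replicate 1 they were -0.034 and 0.22.

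The group of sister chromatid separation holds the protectors and the cutter of cohesin. None of its 6 genes passed the test, where 0.732% of all tested genes did, so this does not set the group apart. SGO1, which protects centromeric cohesin from removal in prophase, had 1056 and 1529.9 in control and 1140.3 and 1408 in auxin. Both auxin values lay between the control values (log2 fold change -0.0046, interval -0.48 to 0.47). SGO2, the paralogue of SGO1, had 1296 and 1606 in control and 1686 and 1876 in auxin. Its groups did not overlap, and the log2 fold change of 0.30 was among the 3 highest of the 49 (SE 0.17, interval -0.085 to 0.69, adjusted p = 0.647). ESPL1 encodes separase, the protease that cuts RAD21. It had 2509 and 2449.9 in control and 2648 and 2646 in auxin, without overlap, and the interval held 0 (0.094, interval -0.23 to 0.42). PTTG1, which encodes securin, the inhibitor of separase, had 755 and 1062 in control and 870.1 and 963 in auxin (0.032, interval -0.43 to 0.49). CDC20, which activates the anaphase-promoting complex, had 2423 and 2557 in control and 2907 and 2798 in auxin, without overlap (0.20, SE 0.15, adjusted p = 0.769). UBE2C, the ubiquitin-conjugating enzyme of that complex, was at 0.067.

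The kinetochore genes differed between the control libraries by a median of 0.58 on the log2 scale, against a median change with auxin of 0.098. CENPE, a kinetochore motor protein, had 1891 and 2827 in control and 2595 and 2635 in auxin, with a log2 fold change of 0.18 (interval -0.25 to 0.61). CENPF, a large kinetochore and centrosome protein, had 3187 and 4734 in control and 4004 and 4309.7 in auxin (0.097, interval -0.32 to 0.51). In both genes the auxin libraries lay between the control libraries. The Ndc80 complex members NDC80, NUF2 and SPC25, which bind microtubules, were at 0.099, 0.074 and 0.14, and the centromeric histone CENPA was at 0.043. The CENPA span of 30301 bases starts at position -21767 from the RefSeq start. It overlaps SLC35F6, and the value does not separate these genes. All 6 estimates were above 0, where 51.3% of all tested genes were, and in none did the groups separate. The sign rested on control replicate 1: against control replicate 2 the group's medians were -0.34 (auxin replicate 1) and -0.085 (auxin replicate 2). When control replicate 1 was dropped, CENPE stood at -0.10 and CENPF at -0.18.

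Of the 9 spindle and motor genes, 8 had estimates above 0, where 51.3% of all tested genes were (45.9% of the protein-coding genes at these levels). HMMR, a spindle-associated protein that also binds hyaluronan, had 919.8 and 1305 in control and 1209.9 and 1513 in auxin (0.30, interval -0.16 to 0.77). DLGAP5, which stabilises microtubules near chromosomes, had 1663 and 2136 in control and 2184 and 2342 in auxin, without overlap (0.26, SE 0.17, adjusted p = 0.715). The exception was KIF18A, a kinesin that limits chromosome movements, with 1534 and 2333 in control and 1475 and 1629 in auxin (-0.29, interval -0.75 to 0.17). Its control libraries differed by 0.60 on the log2 scale, more than the estimate itself. ASPM, KIF2C, TPX2, KIF11, KIF4A and NUSAP1 lay between 0.072 and 0.21, and among them only KIF2C had groups that did not overlap. Against control replicate 2 the medians of the 9 genes were -0.24 (auxin replicate 1) and 0.13 (auxin replicate 2). Against control replicate 1 they were 0.15 and 0.49.

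In cytokinesis, KIF14 had the highest estimate of all 49 genes. KIF14, a kinesin of the midbody, had 1419.8 and 1719 in control and 1923 and 2112 in auxin, without overlap. The log2 fold change was 0.37, or 1.29-fold (SE 0.17, interval -0.0070 to 0.74, unadjusted p = 0.0537, adjusted p = 0.499), and with 1 library left out at a time it lay between 0.24 and 0.50. The other 6 genes, KIF20A, KIF20B, KIF23, PRC1, ANLN and ECT2, lay between -0.23 (KIF20B) and 0.14 (KIF20A). TOP2A, the topoisomerase that untangles mitotic chromosomes, had 2671 and 4239.7 in control and 3165 and 3683 in auxin (0.021, interval -0.44 to 0.48). MKI67, which encodes the proliferation marker Ki-67, had 10336 and 16601 in control and 12497 and 18787 in auxin (0.23, interval -0.28 to 0.73). Both genes differed more between the control replicates than between the groups.

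**Figure D2:**
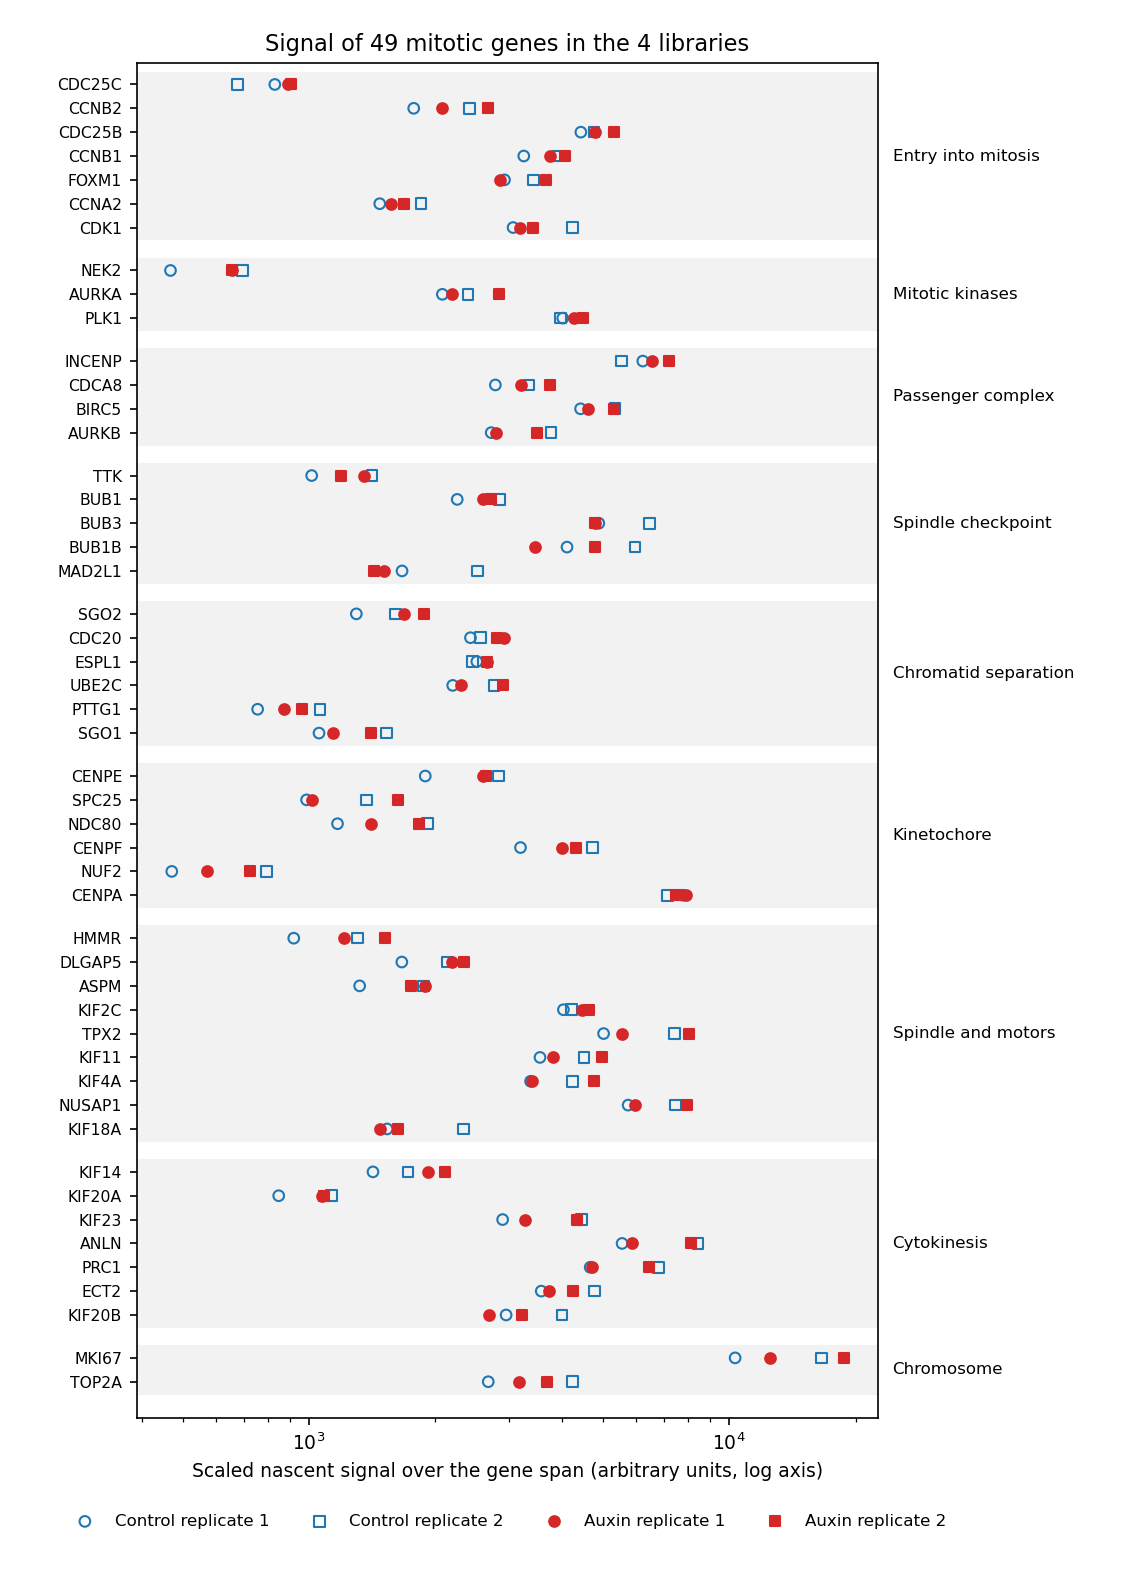
Scaled nascent signal of the 49 genes in each library on a log axis (open symbols control, filled symbols auxin; circles replicate 1, squares replicate 2). Control replicate 1 is the lowest library in 38 of the 49 genes, and the auxin points mostly lie within or close to the span of the control points.

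Most mitotic genes differed more between the control libraries than between auxin and control. Control replicate 2 exceeded control replicate 1 in 44 of 49 genes, with a median log2 difference of 0.42, where 50.1% of all tested genes (45.6% of the protein-coding genes at these levels) were higher and the median of all tested genes was 0.00079. Auxin replicate 2 exceeded auxin replicate 1 in 43 of 49 (median 0.15; 51.2% of all tested genes, with a median of 0.0092, and 45.9% of the protein-coding genes at these levels). The same direction stood in the related lists. Replicate 2 was higher in 64 of 78 other G2/M genes in each group. In the G1/S genes it was higher in 57 of 58 in control (median 0.32) and in 56 of 58 in auxin (median 0.38). The 49 genes together took 0.182% and 0.237% of the deposited signal in control replicates 1 and 2, and 0.207% and 0.241% in auxin replicates 1 and 2. The difference between the groups was larger than that between the control replicates in 7 genes, and larger than both replicate differences in 6. The matching shares of all tested genes were not counted. A difference between group means also varies less than one between single libraries, so these counts alone do not set the mitotic genes apart. Taking single pairs of libraries, the median of auxin replicate 1 minus control replicate 1 was 0.11 and that of auxin replicate 2 minus control replicate 2 was -0.0078. It was -0.24 for auxin replicate 1 minus control replicate 2 and 0.40 for auxin replicate 2 minus control replicate 1. The direction in these genes thus depended on which libraries were set against each other. What made control replicate 1 low in them was not tested.

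The changes were also set against length, level and promoter letters. Across the 49 genes, which share the same 4 libraries, Spearman's rho of the log2 fold change was 0.094 with the span and -0.24 with the signal per kb. The 22 genes with a CHR downstream of a CCAAT had a median log2 fold change of 0.13, and the 20 genes with a promoter entry but without this arrangement had 0.073, with ranges that overlap (-0.29 to 0.37 and -0.48 to 0.30). The span of 23 genes overlapped another tested gene. For an opposite-strand gene lying inside a longer gene, the median log2 ratio of its signal per kb to its host's was 0.0091 (3109 pairs). For same-strand genes it was 0.15 (1542 pairs). The values thus appear to hold signal of both strands, though the spread over pairs was not taken. The median of the 26 genes that overlap none was 0.089.

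Other G2/M genes from a wider list did not pass the test either. Of 78 such genes, all tested, 0 were called with limma (background 0.332% higher and 0.4% lower), 3 were higher and 9 lower at an unadjusted p under 0.05 (background 4.75% higher and 5.47% lower, and 10.6% lower among the protein-coding genes at the levels of the 49), and the median log2 fold change was -0.031. The genes with the smallest p were CENPM, a centromere protein, at 4491 and 5402 in control and 2451 and 3312 in auxin (-0.79, SE 0.18, adjusted p = 0.0904), and WEE1, the kinase that holds CDK1 inactive, at 4126 and 5203 in control and 2809 and 3367 in auxin (-0.59, adjusted p = 0.182). In both genes both auxin libraries lay below both control libraries. The medians of the list's 4 groups, whose ranges overlapped and between which no test was made, were as follows: 19 further spindle and cytokinesis genes had a median of 0.12, 17 genes listed with the anaphase-promoting complex -0.052, 15 genes controlling entry into mitosis -0.065, and 27 further kinetochore genes -0.094. The sign of the list's median changed with a library left out, from -0.13 (control replicate 1) to 0.063 (control replicate 2).

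Genes of the G1/S transition and of DNA replication, the preceding phase, had other values in the same libraries. Of 58 such genes, all tested, 56 were lower with auxin and 2 higher, where 51.3% of all tested genes and 45.9% of the protein-coding genes at the levels of the 49 were higher. The median log2 fold change was -0.56 (0.677-fold), and in 44 both auxin libraries lay below both control libraries (19.6% of all tested genes and 27.6% of those protein-coding genes). The limma test called 5, all lower (background 0.4%): CCND1, UNG, POLD1, CDK6 and ORC1. At an unadjusted p under 0.05, 42 were lower (background 5.47%, and 10.6% of those protein-coding genes). The list was chosen with earlier results of these data known, so these counts are no independent test. ORC1, a subunit of the origin recognition complex, fell from 4364 and 4878 in control to 2293 and 2845 in auxin (log2 fold change -0.85, adjusted p = 0.0425). CCND1, which encodes cyclin D1, fell from 27207 and 28593 to 17126 and 16078 (-0.75, adjusted p = 0.0111). UNG, the uracil-DNA glycosylase of base excision repair, fell from 5924 and 7187 to 3192 and 3807 (-0.90, adjusted p = 0.0310). In each of these 3 genes both auxin libraries lay below both control libraries. The same held for POLD1, the catalytic subunit of DNA polymerase delta, which fell from 6772 and 7129 to 4119 and 4359 (-0.71, adjusted p = 0.0400). CDK6, a kinase partner of cyclin D1, fell from 19592 and 24676 to 11945 and 14198 (-0.76, adjusted p = 0.0423), also without overlap. E2F1, whose promoter is shown above and which was chosen after its values were seen, had 5176 and 5958 in control and 2943 and 3579.9 in auxin (-0.77, adjusted p = 0.0578). The number called depended on the libraries: 0 passed when control replicate 2 was dropped, and 3 when auxin replicate 1 was. It was 7 when control replicate 1 was dropped and 30 when auxin replicate 2 was. The median stayed below 0 each time, from -0.76 to -0.35.

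**Figure D3:**
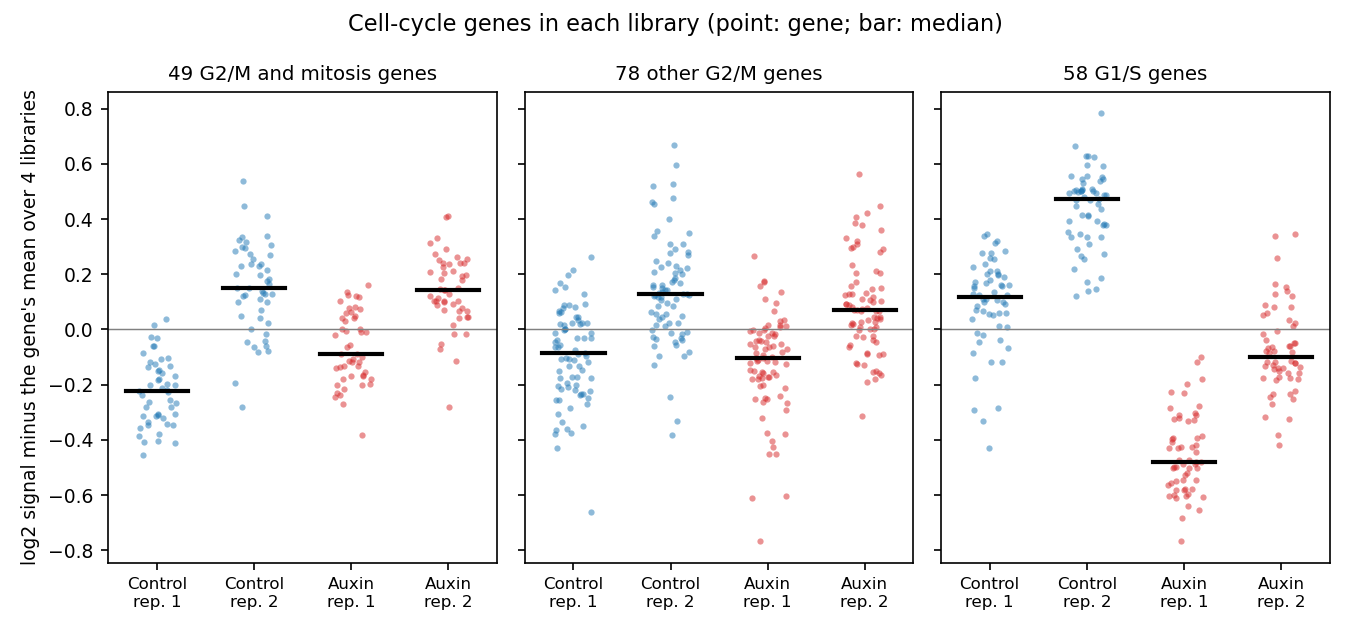
Log2 scaled signal of each gene minus its mean over the 4 libraries, for the 49 mitotic genes, 78 other G2/M genes and 58 G1/S genes (points are genes, bars medians). In all 3 lists replicate 2 has a higher median than replicate 1 in both groups, and in the G1/S genes both auxin medians (-0.48 and -0.10) lie below both control medians (0.12 and 0.47).

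By library, the G1/S medians separated the groups and the mitotic medians did not. The median centred level of the mitotic genes minus that of the G1/S genes was -0.34 and -0.32 in control replicates 1 and 2 and 0.39 and 0.24 in auxin replicates 1 and 2. For the other G2/M genes it was -0.20 and -0.34 in control and 0.38 and 0.17 in auxin. The groups did not overlap in this difference, nor did they in the G1/S medians alone. The mitotic genes' own medians were -0.22 and 0.15 in control and -0.090 and 0.14 in auxin, with overlap. The difference contains the G1/S medians, which separated the groups by themselves, so it is no independent result. In control replicate 1 the mitotic median (-0.22) made up more of the difference than the G1/S median (0.12). No test was made of a score over either list.

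**Figure D4:**
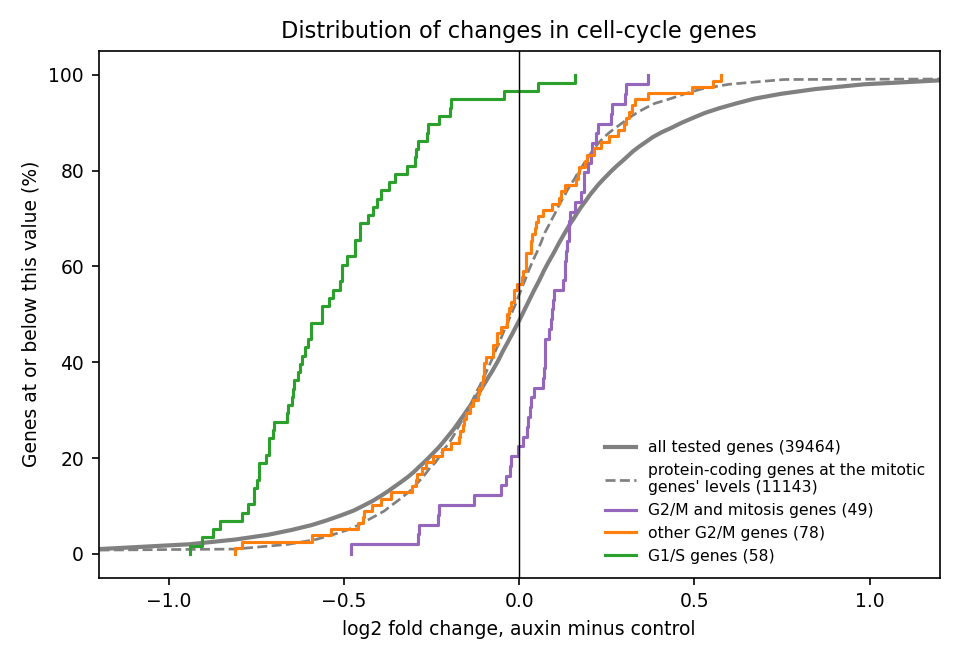
Cumulative share of genes (percent) by log2 fold change, auxin minus control, for the 3 gene lists, for all 39464 tested genes and for 11143 protein-coding genes at the levels of the mitotic genes. The curve of the mitotic genes crosses 50% at 0.094, and that of the G1/S genes crosses it at -0.56. The curve of all tested genes crosses it at 0.0089, and that of the protein-coding genes at -0.023.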

How the data were processed

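The deposited table holds a scaled signal per gene and library. The low values of each library are whole multiples of 1 step, but spans of at least 5 kb held 1 step in 15 to 20 genes and 2 steps in 319 to 398, so a step was not taken for a read. The submitters' processing notes name Trimmomatic 0.39, Bowtie2 2.4.5 and deepTools 3.5.1 and the builds hg38 and dm6; the counter, annotation and scaling factor are not given in the sources used here. A misspelt column was read as control replicate 2. Of 42 member genes in the RefSeq table, 25 had the same start once 1 was added to the table's.

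The filter kept genes reaching, in 2 or more libraries, the share of the total that 10 units make up at the median total, with 15 or more units summed. After scaling (30% of log ratios and 5% of levels trimmed at each end), log2(value + 1) was fitted with limma 3.58.1 in R 4.3.3 (lmFit, eBayes with trend, 8.23 prior degrees of freedom) on all 39464 genes, with Benjamini-Hochberg adjustment. Folds are on this scale, which understates changes of low genes. The script was tested on simulated data. Values in every library are given for the smallest p of each role group, the 3 highest and lowest changes and 14 genes set by name; of other lists, called genes and the 2 smallest p. Members and lists were chosen with earlier results of these data known. Sequences are RefSeq's.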

Additional observations from a re-analysis of the deposited data

How the results depend on the processing

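The count of called mitotic genes stayed at 0 under median-ratio scaling, library size only, the deposited scale and no filter. It also stayed at 0 with a mean of at least 50, with pseudocounts of 0.1 and 10, and in a fit without the per-library dependence on span. That fit was chosen after seeing the data. Between these settings the medians of the 3 lists moved by less than the replicates differed. For the G1/S genes the median was -0.58 on the deposited scale and -0.53 with library size only, against -0.56. The deposited scale also called 0 G1/S genes, so it is a weak check of the count of mitotic genes. The count was also 0 at an adjusted p under 0.1, and only the medians were taken over genes that overlap no other (for the other lists a choice made after seeing the data). The median of the other G2/M genes was 0.0039 with library size only and -0.13 in those overlapping no gene. Leaving out each library in turn gave 0 called mitotic genes, in fits where 1 group has 1 library and the other supplies the spread, so that this and the matching G1/S counts are weak checks. Called G1/S genes numbered 0 on the deposited scale, 2 with library size only, no filter or the span fit, 4 with a mean of at least 50 and 7 with a pseudocount of 10, against 5. No label ties a replicate number to a day or culture, and 2 pairs are too few to tell; replicate 2 minus replicate 1 correlated between control and auxin at r = 0.37 across the 49 genes and 0.64 across the 11143 genes at their levels. With the replicate block, 2 of the 49 were called, MAD2L1 (-0.48, adjusted p = 0.00173) and KIF14 (0.37, adjusted p = 0.0284), where 10.8% of all genes were; 47 G1/S genes were called, all lower, and of the other G2/M genes 7 were called higher and 11 lower. The prior degrees of freedom were infinite there.

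Of the 23 members given by library under the naming rule, 11 changed sign with a library left out: AURKA ranged from -0.028 to 0.35, AURKB from -0.27 to 0.20, CDK1 from -0.35 to 0.11, CENPE from -0.10 to 0.47, CENPF from -0.18 to 0.38, FOXM1 from -0.15 to 0.22, KIF18A from -0.58 to 0.015, MKI67 from -0.11 to 0.57, PTTG1 from -0.20 to 0.28, SGO1 from -0.26 to 0.26 and TOP2A from -0.30 to 0.35. SGO1 also changed sign with library size only (0.031) and with no filter (0.0021); the cause was not tested. Count models were not run, because reads could not be had from the table.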
